A study of Rattus norvegicus with 6 samples.

Results

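The genes described here are the inhibitor of DNA binding (ID) genes and the bone morphogenetic protein (BMP) genes around them, chosen by name as 10 symbols (Id1, Id2, Id3, Id4, Smad6, Smad7, Bmpr1a, Bmpr2, Bmp4 and Bambi) out of 17048 gene rows in the count tables. All 10 had a row, 7 had a count in at least 1 library, and these 7 passed the filter on low counts. The cells were wild-type rat neural stem/progenitor cells (NSPCs), cultured from the embryonic telencephalon of Sprague-Dawley rats. They were kept for 24 h in stemness-maintaining medium with EGF and bFGF on carbon films of High, Medium or Low electrical conductivity, each coated with poly-D-lysine and laminin. Every film had 2 libraries, 6 in all, and the cells were not differentiated before collection. The coating was adjusted to bring the films to similar laminin. By the methods for cell adhesion, Medium was given less poly-D-lysine than High and Low, which were given the same concentration. A trait of Medium alone therefore cannot be told apart from this coating. Nothing in the sources says whether the replicates were separate cultures, so p-values measure only the spread between these libraries, which may be technical. A film and the preparation of its libraries cannot be told apart.

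BMPs are secreted ligands that bind pairs of type I and type II serine/threonine kinase receptors, which phosphorylate SMAD1, SMAD5 and SMAD9. These join SMAD4 in the nucleus and switch on the ID genes, a direct readout of the pathway, together with the inhibitory SMADs that shut the receptor down again. ID proteins are helix-loop-helix proteins without a DNA-binding basic region: they capture E proteins such as TCF3, TCF4 and TCF12 and so withhold these partners from neurogenic and oligodendroglial factors such as OLIG2. In neural progenitors, ID proteins are known for holding cells in an undifferentiated state and, under BMP, for favouring the astrocyte fate.

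The 3′-end counts summed to between 5124863 and 6213676 per library. QuantSeq reads come from the transcript end, so counts do not grow with transcript length and levels of different genes can be set side by side, although priming can still differ between genes. The share of counts on ribosomal RNA rows was 25.9% and 38.3% in the High libraries and 6.90 to 12.8% in the other 4, and TMM scaling factors were 0.890 and 0.777 in High against 1.04 to 1.14. Of 17048 rows, 7482 had no count in any library and 3953 had counts in all 6. Many rows were high in 1 replicate and near 0 in the other: 1608 rows on High, 2290 on Medium and 1590 on Low had at least 50 counts in 1 replicate and at most 3 in its partner. Of 10 stem and radial glia genes, 8 had counts, led by Vim (1980 to 3680 CPM, that is, TMM-normalised counts scaled to a common library size) and Sox9 (594 to 1467 CPM), while Msi1 and Hes5 were at 0. Lists of neuron, astrocyte and oligodendrocyte-lineage markers also held genes with counts, so these markers alone do not settle the NSPC label. In bulk RNA, fewer cells of a type and less RNA per cell cannot be told apart.

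Among the members, the ID genes carried most of the summed level in all libraries but the first Low library. Id1 was the most abundant over the 6 libraries, followed by Id3, Id2 and Bmpr2, which lay close to each other, and these 4 had counts in every library. Bmpr1a, Id4 and Smad7 had counts in only some libraries. Smad6, Bmp4 and Bambi were at 0 counts in all 6, which at this depth allows up to 3 counts in a library, or 0.435 to 0.716 CPM. Such floors, and the counting intervals given below, cover counting error only, since the reads carry no molecular identifiers. The SE and intervals of fitted differences come from the edgeR fit over all 6 libraries. They were worked back from the estimate and its test statistic, so they restate the p-value and add no separate measure of spread.

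**Figure D1:**
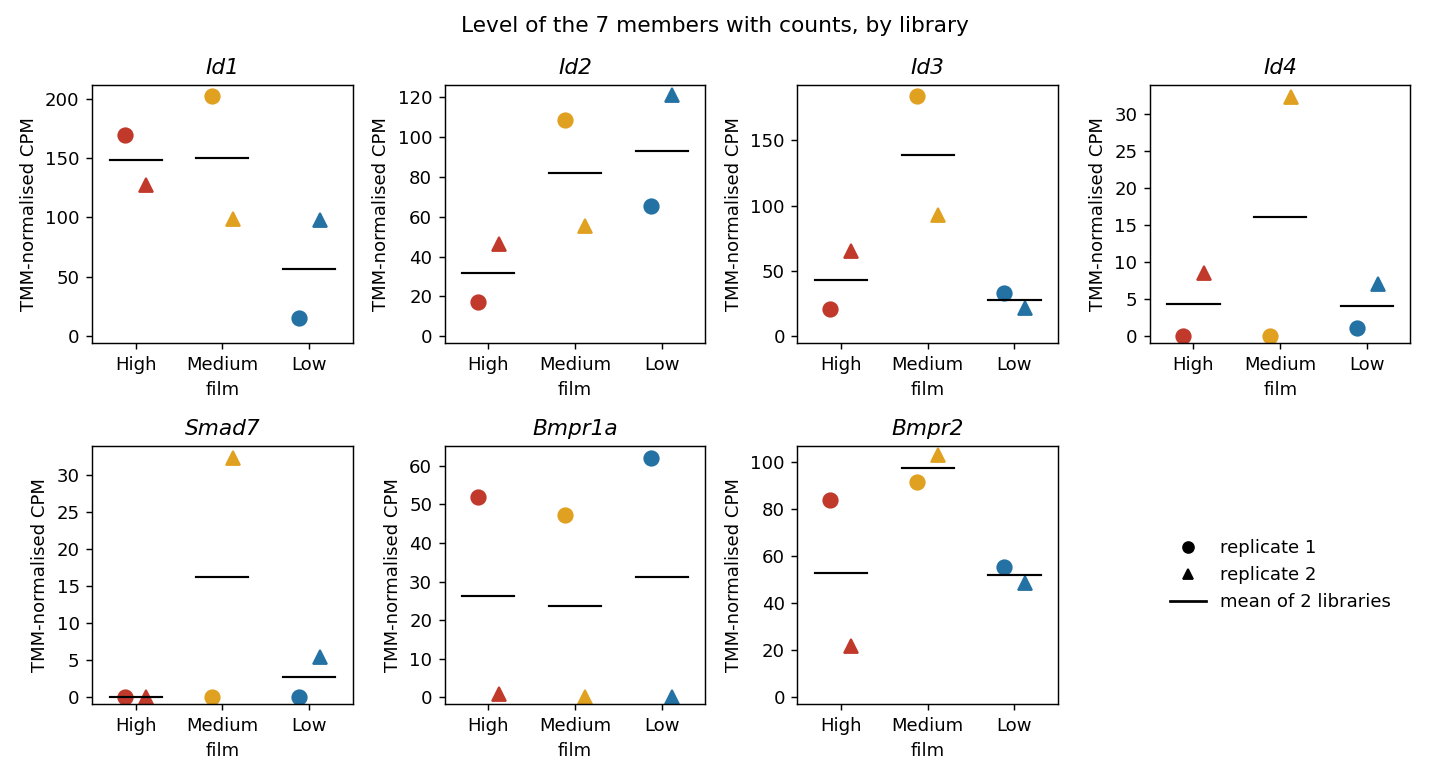
TMM-normalised CPM (linear axes, one scale per gene) of the 7 members with counts on the High, Medium and Low films, with circles for replicate 1, triangles for replicate 2 and bars for the mean of 2 libraries. Id2 is the 1 gene whose 4 Medium and Low libraries all lie above both High libraries, and Bmpr1a is at or near 0 in every replicate 2.

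Id1, the prototype BMP target, had 823 and 534 counts on High, 1178 and 601 on Medium, and 105 and 581 on Low. The 2 Low libraries were below all 4 others, but the second Low library was only just below the second Medium library, at 97.5 against 98.6 CPM. The film means were 148 ± 29.8 CPM on High, 150 ± 73.3 on Medium and 56.4 ± 58.2 on Low (SD, n = 2). In the first Low library Id1 stood above 33.7% of the tested rows, against 74.2 to 87.3% in the other 5, so the low mean on Low rests mainly on that library. High and Medium did not differ beyond their spread.

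Id2, an ID gene known for holding back oligodendrocyte differentiation, ran differently. It had 83 and 195 counts on High, 633 and 338 on Medium, and 452 and 721 on Low. Both High libraries were below all 4 Medium and Low libraries, while Medium and Low overlapped. The film means were 31.8 ± 20.8, 82.0 ± 37.6 and 93.3 ± 39.3 CPM in the order High, Medium, Low (SD, n = 2). Id2 was the only member of the 7 tested whose Medium and Low libraries were all above High. The same held for 623 of the 7729 tested rows, or 8.06%, so 1 of 7 members was near that background. No member had all 4 below High, for which the share of all rows was not counted.

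Summed over the list, stem and radial glia markers were also lower on High than on Medium and Low. Their summed level was 3599 and 3313 CPM on High, 5703 and 5680 on Medium, and 4769 and 6504 on Low. Vim and Sox9 made up most of that sum in every library. Sox2, a transcription factor of neural stem cells, was at 267 ± 1.56 CPM on High, 576 ± 31.1 on Medium and 694 ± 15.97 on Low (SD, n = 2). Nes, an intermediate filament gene of progenitors, was at 87.4 ± 7.53, 368 ± 57.8 and 203 ± 5.67 CPM in the same order. For Low and Medium against High, 6 of the 8 tested markers had a higher estimate and 2, Fabp7 (-0.60) and Hes1 (-0.82), a lower one. In that comparison 4 of the 8 (Sox2, Nes, Sox9 and Vim) had an unadjusted p under 0.05, all higher. None was called (edgeR adjusted p = 0.212 for Sox2 and 0.468 for Nes). The part of this difference in the Id2 levels was not tested.

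The RefSeq upstream sequences of these ID genes with contrasting levels are given for their start regions, as bases before the annotated transcript start in the GRCr8 assembly, since the reads were aligned to another build (rn6) and no position is carried between them. Capitals mark TATAAA in Id1 and the E-box pattern CANNTG in Id2, the E-box being the letters that E protein dimers recognise. The Id1 sequence lies on the plus strand at chr3:161671314-161671524 and stops where an annotated transcript of the gene begins. The Id2 sequence lies on the minus strand at chr6:47470996-47471245.
Id1: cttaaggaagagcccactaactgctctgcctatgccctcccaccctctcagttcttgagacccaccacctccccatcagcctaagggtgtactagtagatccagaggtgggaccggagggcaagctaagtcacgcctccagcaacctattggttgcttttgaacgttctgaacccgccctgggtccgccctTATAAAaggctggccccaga
Id2: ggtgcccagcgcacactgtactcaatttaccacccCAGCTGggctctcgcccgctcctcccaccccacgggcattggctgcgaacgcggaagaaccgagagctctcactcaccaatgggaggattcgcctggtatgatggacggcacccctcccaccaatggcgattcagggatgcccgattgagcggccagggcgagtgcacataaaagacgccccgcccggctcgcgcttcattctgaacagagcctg
The 4 patterns were searched on both strands of the 250 bases before the start, for the 9 members with an entry. GGCGCC, a GC-rich SMAD1/5 element, was found in 8.69% of 33469 rat promoters of that length, and among the members at 2 places in Smad7 and at 1 in Bambi. CAGAC, which holds the SMAD4 element, occurred in 42.9% of promoters and among the members only in Bmp4. CANNTG occurred in 65.5% of promoters and was found in Id1 (in the bases not printed), Id2 and Bmp4, and TATAAA occurred in 12.9% and was found in Id1 and Bmpr1a. None of the 4 patterns was found in Id3, Id4 or Bmpr2. A match is a description of letters in a window, and enhancers farther away were not searched.

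Id3, which usually follows Id1 as a BMP target, had 101 and 274 counts on High, 1074 and 568 on Medium, and 231 and 131 on Low. Both Medium libraries were above all 4 others, and High and Low overlapped. The share of all rows that set Medium or Low apart in this way was not counted. Such separations, here and for Id1, Bmpr2 and Smad1, are therefore not read as a trait of these genes. Film means were 43.1 ± 31.5 CPM on High, 139 ± 64.5 on Medium and 27.7 ± 8.12 on Low (SD, n = 2). Id1 and Id3 were thus both highest in the first Medium library, whereas Id3 but not Id1 was low in the first High library.

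Id4, an ID gene of progenitors in the developing brain, was sparse. It had 0 and 36 counts on High, 0 and 197 on Medium, and 8 and 42 on Low. In every film the second replicate was the higher one, and the 3 films overlapped. The 197 counts were in the second Medium library, which also held 2005 counts of Col1a1, a collagen of meningeal and other mesenchymal cells, against 0 to 116 in the other libraries. Over the 9 endothelial and meningeal markers, 4 had counts, their summed level was 338 CPM in that library against 5.4 to 35.8 CPM in the others, and the defining markers Pecam1, Cdh5, Dcn, Lum and Pdgfrb were at 0 in all 6. Col1a2, its partner chain, was at 0 in that library, and the study's methods say that the meninges were taken off before the cells were dissociated. The part of the Col1a1 signal in the Id4 count was not tested.

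The fit compared Low with High, Medium with High, Low with Medium, and Low and Medium together with High, and the comparisons with High share its 2 libraries. None of the 7 tested members passed an adjusted p of 0.05 in any of the 4 comparisons (edgeR quasi-likelihood test, Benjamini-Hochberg over 7729 rows), and none had an unadjusted p under 0.05. Among all rows, 0.0518%, 0.0129%, 0% and 0.129% were called in these 4 comparisons, in the order given. An unadjusted p under 0.05 was met by 4.27%, 4.04%, 1.51% and 5.5%. By DESeq2, 0 of 7 passed the adjusted threshold in any comparison, and 1, Id3 between Low and Medium, had an unadjusted p under 0.05 (adjusted p = 0.282).

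On the log2 scale, Id1 was lower on Low than on High by an estimate of -1.40 ± 0.93 (SE) and lower on Low than on Medium by -1.42 ± 0.93, with edgeR adjusted p of 0.899 and 1. The estimate against High depended on which Low library was used, at -0.61 without the first and -3.28 without the second. Id2 was higher than on High by 1.55 ± 1.19 on Low and 1.37 ± 1.18 on Medium, with edgeR adjusted p of 0.959 and 1. For Low and Medium together the estimate was 1.46 ± 1.08, with a 95% interval from -0.95 to 3.87 and an edgeR adjusted p of 0.829. The interval holds no change as well as a large rise, so the 2 libraries per film could not place Id2 on either side. The High libraries also had the largest ribosomal RNA shares, and with those rows left out the estimate was 1.45. That removes those rows alone and no other difference between the High libraries and the rest. The part of RNA quality or library make-up in the Id2 levels was not tested.

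Id3 had the largest fitted difference among the 4 members with counts everywhere, -2.32 ± 1.21 between Low and Medium (edgeR unadjusted p = 0.0850, edgeR adjusted p = 1). Between Medium and High it was 1.69 ± 1.19 (edgeR adjusted p = 0.908) and between Low and High -0.64 ± 1.16. The median log2 fold change over the 7 members was -0.03 for Low against High, beside 0.02 for all tested rows. It was 1.37 for Medium against High, beside -0.06, with 6 of 7 members higher, beside 3678 of 7729 rows. Of these 6, Id1 was higher by only 0.018. For Low against Medium the median was -1.42, beside 0.07, with 5 of 7 members lower, beside 3627 of 7729 rows. These medians describe 7 genes of which 3 have counts in some libraries only.

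**Figure D2:**
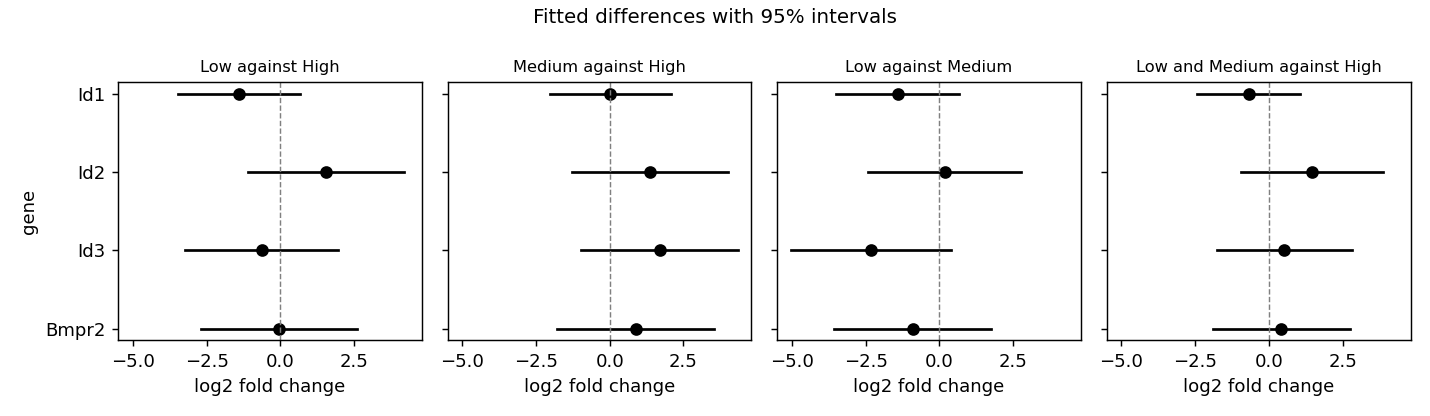
Fitted log2 fold changes (points) and 95% intervals (lines) from the edgeR fit for the 4 members with counts in all 6 libraries, in 4 panels for the 4 comparisons. Every interval crosses the dashed line at no change, and the Id3 interval for Low against Medium comes nearest to leaving it.

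Setting the ID genes against each other within a library removes library size and scaling from the comparison. Id1 made up 81.7% and 51.4% of the summed ID counts on High, 40.8% and 35.3% on Medium, and 13.2% and 39.4% on Low. Id2 made up 8.24% and 18.8% on High, 21.9% and 19.8% on Medium, and 56.8% and 48.9% on Low. Id1 was the leading ID gene in the High and Medium libraries and Id2 in both Low libraries. Id3 ranged from 8.88% to 37.2% and was highest on Medium, and Id4 from 0% to 11.6%. Summed ID counts ran from 796 in the first Low library to 2885 in the first Medium library.

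The number of Id2 counts per Id1 count was 0.101 and 0.365 on High, 0.537 and 0.562 on Medium, and 4.30 and 1.24 on Low. The 95% counting intervals (from exact Clopper-Pearson limits) were 0.0795 to 0.127 and 0.308 to 0.431 on High, 0.487 to 0.592 and 0.491 to 0.644 on Medium, and 3.47 to 5.38 and 1.11 to 1.39 on Low. The films were therefore ordered High, Medium, Low without overlap, with Medium replicates within each other's counting interval and High and Low replicates far outside theirs. This ratio was singled out after its values were seen. Relative to Id1, 324 of 3930 rows with counts in all libraries, or 8.24%, were ordered the same way, so many other genes had the same order relative to Id1.

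On the log2 scale the ratio was higher by 3.59 on Low than on High, by 1.52 on Medium than on High, and by 2.07 on Low than on Medium. Each of these had an exact two-sided permutation p of 0.333, the smallest that 2 libraries against 2 can give. Low and Medium together were higher than High by 2.55, in 4 of 4 libraries, with an exact two-sided permutation p of 0.133, again the smallest possible. Films without overlap must give the smallest p, and the ratio was chosen after its values were seen, so these p-values carry no support. Leaving out each library in turn kept the Low against High difference between 2.66 and 4.52 and the Medium against High difference between 0.59 and 2.45.

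The proportions among the 3 main ID genes were nearly equal in the 2 Medium libraries although their absolute levels differed. Id3 per Id1 was 0.912 and 0.945, and Id2 per Id3 was 0.589 and 0.595, while the summed ID level was 495 and 279 CPM. On Low, Id3 per Id1 was 2.20 in the first library and 0.225 in the second. On High it was 0.123 and 0.513.

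**Figure D3:**
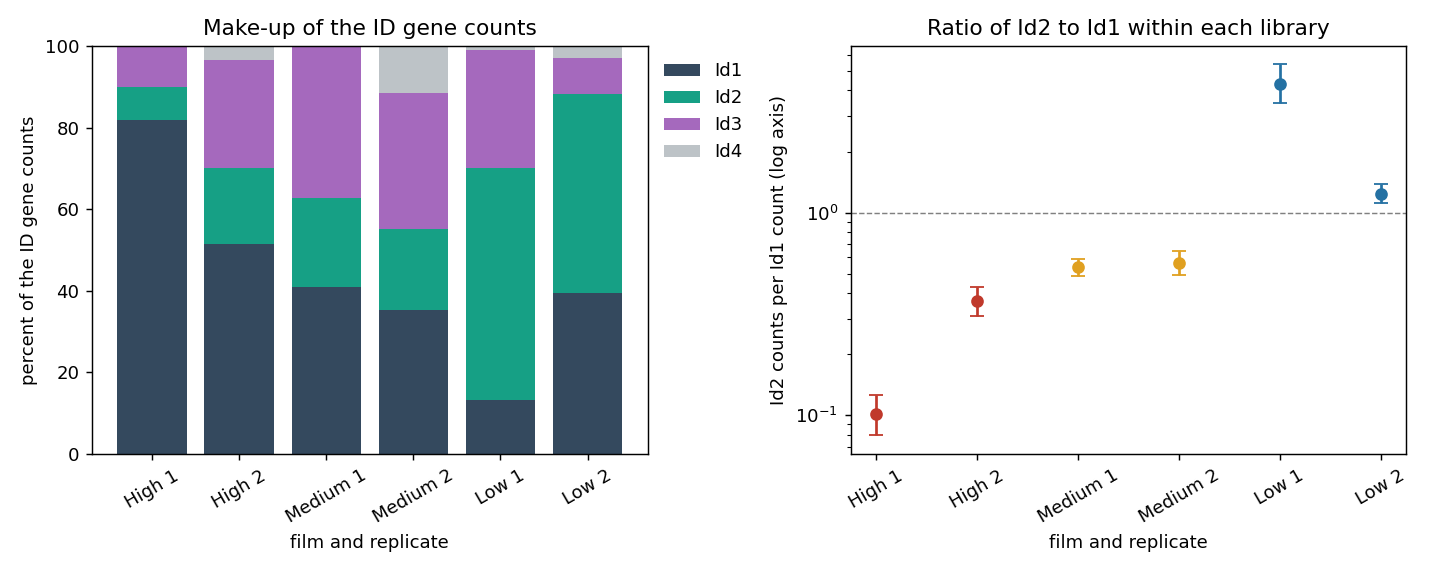
Left, percent of the summed Id1, Id2, Id3 and Id4 counts taken by each gene (stacked bars) in each of the 6 libraries, and right, Id2 counts per Id1 count (log axis) with 95% counting intervals as error bars and equality as a dashed line. Id1 takes 81.7% in the first High library and 13.2% in the first Low library, and the ratio passes 1 in the 2 Low libraries.

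The inhibitory members had counts in few libraries. Smad7, an inhibitory SMAD that brings ubiquitin ligases to the receptors of both BMP and TGF-beta, had 0 counts in both High libraries, 0 and 197 on Medium, and 0 and 32 on Low. With the floor of 3 counts per library put in for High, its mean was 24.2-fold higher on Medium and 4.03-fold higher on Low. Each ratio came through the second replicate alone. They cover counting error only and set no lower limit on a film difference, since the first Medium and Low libraries were at 0 like High. On the log2 scale the fitted interval ran from -4.17 to 23.2 for Medium against High (edgeR adjusted p = 0.908). For Low against High it ran from -5.07 to 18.9 (edgeR adjusted p = 0.960), and both intervals hold no change. With both High libraries at 0, the size of these estimates and the width of their intervals have little meaning. Smad7 and Id4 had the same count of 197 in the second Medium library, the one with the Col1a1 counts. Smad6, the inhibitory SMAD that acts mainly on BMP receptors, and Bambi, a decoy receptor without a kinase, had no counts.

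Of the receptors, Bmpr2, the type II receptor, was steady on Medium and Low and spread on High. It had 407 and 91 counts on High, 533 and 626 on Medium, and 380 and 288 on Low. Both Medium libraries were above all others, and both Low libraries lay between the 2 High libraries. Film means were 52.8 ± 43.9, 97.1 ± 7.92 and 51.7 ± 4.75 CPM on High, Medium and Low (SD, n = 2). The Medium against High estimate was 0.88 ± 1.19 on the log2 scale (edgeR adjusted p = 1), and Low against High was -0.03 ± 1.18.

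Bmpr1a, a type I BMP receptor, followed the replicate number instead of the film. It had 252, 276 and 429 counts in the first replicates of High, Medium and Low and 3, 0 and 0 in the second. Only 4 rows of 17048 were at 50 counts or more in every first replicate and at 3 or fewer in every second one, against 34 rows with the opposite arrangement and 104 with a mixed one. Across all tested rows the differences between replicates did not run together between films (correlations of 0.00342 to 0.00733 over 7729 rows, a description). The 3 films overlapped fully in Bmpr1a, with means of 26.3 ± 36.2, 23.7 ± 33.5 and 31.1 ± 43.9 CPM (SD, n = 2). Bmp4, the ligand among the members, had no counts in any library.

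The rest of the pathway was read from lists of ligands, antagonists, receptors, SMADs, regulators and targets. No gene of these lists was called in any comparison. Of 7 other BMP ligands with a row, 5 were at 0 in all libraries. Bmp3, a ligand that opposes osteogenic BMPs, had 257 counts in the second Medium library and 209 in the second Low library and 0 elsewhere, and Bmp7 had 121 counts in the second Medium library alone. Of 11 extracellular antagonists, Nog, Chrd, Grem1, Fst and 5 others were at 0, and 2 had counts in all libraries. Fstl1, a secreted follistatin-like glycoprotein, ran from 3 to 1801 counts, and Nbl1, a DAN-family antagonist, from 103 to 362. Neither separated the films.

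The signal transducers were better measured than the ligands. Smad1 had 151 and 148 counts on High, 371 and 171 on Medium, and 631 and 474 on Low, which as CPM was 33.2 ± 2.97, 45.9 ± 25.2 and 85.5 ± 8.38 (SD, n = 2). Its Low libraries were above the other 4, and High and Medium overlapped. The Low against High estimate was 1.36 ± 1.35 (edgeR adjusted p = 1). Smad4, the common partner, had 848 and 336 counts on High, 630 and 190 on Medium, and 1073 and 771 on Low, with overlapping films. Smad5 had counts only in the second Medium and second Low library (76 and 58), and Smad9 had none.

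Of the other receptors with a row, 5 of 7 were at 0, among them Bmpr1b and Acvr1, the alternative type I receptors. Rgma, a BMP co-receptor, had 0 to 409 counts and Acvr2a, an activin and BMP type II receptor, 0 to 255, with no separation of films. Of the intracellular regulators, Fkbp1a, which holds type I receptors silent, was by far the most abundant gene of the pathway at 4710 to 10918 counts, with means of 1145 ± 30.9, 1320 ± 18.8 and 1427 ± 218 CPM on High, Medium and Low (SD, n = 2). Its 4 Medium and Low libraries were above both High libraries, an order met by 8.06% of all tested rows. Smurf2, a ubiquitin ligase for SMADs and receptors, had 445 and 488 counts on High, 0 and 401 on Medium, and 1043 and 324 on Low.

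The other BMP targets gave no further readout that ran with Id1 or Id2. Atoh8, Msx2, Hey1 and Dlx2 were at 0, and Msx1 had 215 counts in the first Low library, 22 in the second High library and 0 elsewhere. Junb, an immediate early gene that BMP also induces, had 510 and 348 counts on High, 0 and 312 on Medium, and 42 and 364 on Low. As CPM, its High libraries were both above the other 4, and the share of all rows with that order was not counted. In the TGF-beta arm, Tgif1, a corepressor of SMAD2, had 604 and 625 counts on High, 161 and 289 on Medium, and 472 and 809 on Low. Smad2, a TGF-beta receptor SMAD, had 0 and 35, 257 and 112, and 416 and 246 counts in the same order, with High below the other 4 libraries. Over all tested rows 8.06% had that order, so it is not read as a trait of Smad2.

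Of the partners of ID proteins, Olig1, Olig2, Tcf3 and Tcf4 had counts in every library. Tcf12 had 0 and 68 counts on High, 276 and 97 on Medium, and 190 and 0 on Low, and Neurog1 had none. Olig2, the oligodendroglial and progenitor factor that dimerises with E proteins, had 835 and 751 counts on High, 2016 and 1846 on Medium, and 2387 and 2309 on Low. All 4 Medium and Low libraries were above both High libraries, with means of 176 ± 5.04, 324 ± 30.6 and 367 ± 29.5 CPM (SD, n = 2). The same order held for 8.06% of all tested rows, so it is not read as a trait of Olig2. The estimates were 1.06 ± 0.38 for Low and 0.89 ± 0.38 for Medium against High, unadjusted p under 0.05 and edgeR adjusted p of 0.899 and 0.908. Olig1 had 714 and 745 counts on High, 955 and 1401 on Medium, and 2777 and 1302 on Low. Of the E proteins, Tcf3 had 122 and 276, 897 and 492, and 271 and 329 counts in that order, highest on Medium as Id3 was, and Tcf4 had 651 and 891, 1310 and 639, and 602 and 759, with overlapping films.

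Each list of markers of other cell types held genes with counts and genes at 0. Neurons were represented by 6 of 9 markers, with Gap43 highest, Tubb3 at 96 and 72 counts in the Low libraries and 0 in the other 4, and Rbfox3, Neurod1 and Syt1 at 0. Map2 and Dcx had most of their counts on Low. Stmn2 had 60 counts in the first High library alone, and Snap25 had 52 in the second High library alone. The summed level of that list was 69.4 and 31.0 CPM on High, 27.1 and 147 on Medium, and 202 and 140 on Low. Gap43 made up most of it in every library. Of 8 astrocyte markers 5 had counts, led by Gja1 and Aldoc, with Aqp4, Aldh1l1 and Slc1a2 at 0, Gfap at 70 counts in the first High library alone, and a summed level of 129 to 220 CPM. Of 8 oligodendrocyte-lineage markers 6 had counts, led by Olig2 and Olig1, with Sox10 and Mag at 0, and a summed level of 326 to 748 CPM that was highest on Low. Of 7 microglia markers, 2 had counts, each in 1 library, and the summed level was 0 to 7.10 CPM. The part of these cells in the ID levels was not tested.

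The genes nearest to Id1 across the 6 libraries were Nipsnap1, Ino80 and Rabgap1, with root mean square differences of 0.281, 0.284 and 0.297 between patterns on the log2(CPM + 1) scale after centring. These were the nearest of 3453 rows with at least 10 counts in every library, 24 of which lay within 0.5. Nipsnap1, a mitochondrial protein, had 490 and 299 counts on High, 480 and 295 on Medium, and 64 and 213 on Low. Ino80, a chromatin remodeller, had 407 and 319, 831 and 408, and 39 and 389 counts in the same order. All 3, like Id1, were lowest in the first Low library.

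Among the listed genes, and chosen after the values were seen, the radial glia fatty-acid-binding gene Fabp7 ranked 10 of 3453 in nearness to Id1, at 0.386. Fabp7 had 995 and 944 counts on High, 1991 and 952 on Medium, and 292 and 706 on Low, a Low against Medium estimate of -1.63 ± 0.66 (edgeR adjusted p = 1). Tcf3 was the listed gene nearest to Id3, at 0.516. For Id2 the nearest listed gene was Olig2, at 0.555 and rank 117. These distances describe 6 libraries and carry no test.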

How the data were processed

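RNA from 6 libraries of NSPCs was sequenced as QuantSeq 3′ libraries. The authors aligned single-end reads with Bowtie2 (build rn6 in the submitters' processing notes) and took gene counts with bedtools, in which reads with several alignments also entered, so near-identical genes are uncertain. Tool versions are not given in the sources used here. What the authors deposited are these raw counts, 1 table per library, with 17048 rows. The labels name Trizol for RNA isolation, where the methods name a Ribospin kit. Groups and replicate numbers came from the sample titles.

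Counts were filtered with filterByExpr of edgeR 4.0.16 (a minimum of 10 counts in enough libraries and 15 in total) under R 4.3.3, which left 7729 rows, scaled by TMM, and compared over all 6 libraries by the quasi-likelihood test of edgeR. A call needed a Benjamini-Hochberg adjusted p under 0.05. The common dispersion was 2.04, with 3 residual and 6.96 prior degrees of freedom. Film levels are given as TMM-normalised CPM, mean ± SD. The scripts were tested on simulated data. Alternatives were DESeq2 1.42.0, limma-voom (limma 3.58.1), other scalings and filters, fits of 2 films, a replicate block, and leaving out each library.

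All members are named, with pathway genes of an unadjusted p under 0.05 or among the 2 highest of their list, the 2 highest markers of each cell type and markers at 0, and the 3 genes nearest to Id1. Other genes, the Id2 to Id1 ratio and its leave-one-out values were chosen after their values were seen. The members and lists themselves were chosen with earlier results of these data known. The list genes Gdf5, Rgmb, Ski, Skil and Neurog2 were not analysed here, and some list genes are not reported here. Promoter sequences are RefSeq, GRCr8, with entries for 9 of 10 members.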

Additional observations from a re-analysis of the deposited data

How the results depend on the processing

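None of the 24 differences of Id1, Id2, Id3, Id4, Bmpr1a and Bmpr2 was called under any alternative. Of 354 alternative values, 313 kept their direction and 41 turned, 24 of these on leaving out a library. Smad7, the other tested member, was not in this tally of directions. The smallest edgeR, DESeq2 or limma-voom adjusted p over the alternatives was 0.416 for Id1, 0.422 for Id2, 0.282 for Id3, 0.753 for Id4, 0.412 for Smad7, 0.903 for Bmpr1a and 0.807 for Bmpr2. Library size alone in place of TMM moved the median of all genes by over 0.1, to 0.42 for Low against High, 0.29 for Medium against High and 0.26 for Low and Medium against High. Turned directions were, for Low against High, Id4 at 0.43 with library size alone and 1.63 with limma-voom, Bmpr2 at 0.32 and 0.18, and Bmpr1a at -1.55 with limma-voom. For Medium against High, Id1 was -0.019 with DESeq2, -0.021 with DESeq2 size factors, -0.0086 without ribosomal RNA rows and -0.087 with limma-voom, and Bmpr1a was 0.21 with library size alone. With limma-voom, Id4 was 0.81 for Low against Medium and Bmpr1a -1.67 for Low and Medium against High. The cause was not tested.

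On leaving out each library in turn, where a film left with 1 library is assumed to vary like the others, the estimates ran from -10.1 to 5.40 (Low against High), -10.2 to 5.01 (Medium against High), -10.00 to 10.4 (Low against Medium) and -5.15 to 5.20 (Low and Medium against High) for Bmpr1a. For Id4 they ran from -1.87 to 7.61, -7.59 to 9.58, -3.78 to 7.51 and -3.84 to 8.60 in that order. Bmpr2 ran from -0.70 to 1.25 for Low against High and -0.24 to 1.71 for Low and Medium against High, Id1 from -0.59 to 0.42 for Medium against High, Id2 from -0.33 to 0.75 for Low against Medium, and Id3 from -1.24 to 0.41 for Low against High and -0.074 to 1.57 for Low and Medium against High. Without the second Low library, Id1 alone had an unadjusted p under 0.05 in the 3 comparisons with Low.

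Genes called among all rows were 4 for Low against High, 1 for Medium against High, 0 for Low against Medium and 10 for Low and Medium against High (3 higher and 7 lower, against 8 and 6 with library size alone). DESeq2 called 259, 303, 122 and 355, limma-voom 16, 14, 0 and 23, no low-count filter 34, 48, 5 and 68, and a mean of at least 10 counts 30, 40, 0 and 56. Library size alone called 0 in the first 2, leaving out ribosomal RNA rows 2 in the first, and fits of only the 2 films compared 0 and 0. Leaving out each library gave 19 to 65, 11 to 275, 0 to 194 and 34 to 242, the highest of the last 3 without the second Medium library and of the first without the second Low library.

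The replicate numbers share no origin in the labels, and the correlations of replicate differences between films were 0.00342 to 0.00733. With the replicate block, 30, 39, 0 and 57 genes were called and 0 members, Id4 was 3.81 and Bmpr1a -2.29 and Bmpr2 0.15 for Low against High, Id4 was 2.29 for Low against Medium, and Bmpr1a was -2.45 for Low and Medium against High.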
